A study of Mus musculus with 20 samples.

Results

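The comparison set myofibroblasts grown for 3 days from portal mesenchymal stem cells against myofibroblasts grown from hepatic stellate cells, 2 populations of mesenchymal cells from the liver of C57BL/6 mice. Libraries were chosen by their titles, and they number 8 of the 20 in the series. The 4 portal libraries carry day 3 (PMSC-MF-3d) and the 4 stellate libraries day 7 (HSC-MF-7d). The series text gives day 3 for the stellate cultures, so whether the groups were cultured for the same or a different time is uncertain. A further cultured group of 4 libraries, portal cells at day 7 (PMSC-MF-7d), is therefore given beside many of the results as a second reference for time. The remaining 8 libraries hold both cell types without culture. No label names a transgene or a drug for any of these groups. How the cells were isolated or sorted and the mice's age are not given in the sources used here. The labels do not tie the 4 libraries of a group to different animals or cultures. The p-values therefore reflect the variation among these libraries, which may be technical.

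Scar tissue in the liver is laid down by myofibroblasts, contractile cells that secrete collagen. Stellate cells, which store vitamin A in the space between hepatocytes and sinusoids, are their best-known source. Fibroblasts of the portal tract, next to the bile ducts and the portal vein, are another, and both convert when plated on plastic. In culture the same conversion markers, such as smooth muscle actin, come up in either cell, so genes that stay apart are sought to tell the lineages.

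All 24848 genes of the deposited tables were compared and 14751 had enough counts to be tested. Levels are in CPM, counts as a share of the library on a fixed scale, after scaling of the library sizes, given per library or as mean ± SD over 4 libraries. Differences are log2 fold changes ± SE, positive where the day 3 portal cells were higher. A gene was called at an edgeR adjusted p under 0.05. By that rule 4013 genes, 27.2% of those tested, were higher in the day 3 portal cells and 4048, or 27.4%, were lower. Past 2-fold, 1460 of the called genes were higher and 1992 lower. With so many genes called, a count within a gene list is read against these shares, and the median over all tested genes was 0. Where the libraries of the groups did not overlap, this is described for single genes, and the share over all tested genes is not given. Genes that were not called, such as Anln, Gata6 and Pdgfrb, had no overlap either. Total counts ran from 23641579 to 24258856 per library in the day 3 portal cells and from 13572278 to 18382038 in the stellate-derived cells. The spread between replicates, as a biological coefficient of variation, was 10.7% and 7.81%. It was 28.7% and 27.6% in the portal and stellate cells without culture and 19.6% in PMSC-MF-7d, and these groups also enter the fit. Among the cultured libraries the first principal component, with 61.2% of the variance, separated all 8 portal libraries from the 4 stellate ones, and the second, with 19.95%, separated the portal days.

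**Figure D1:**
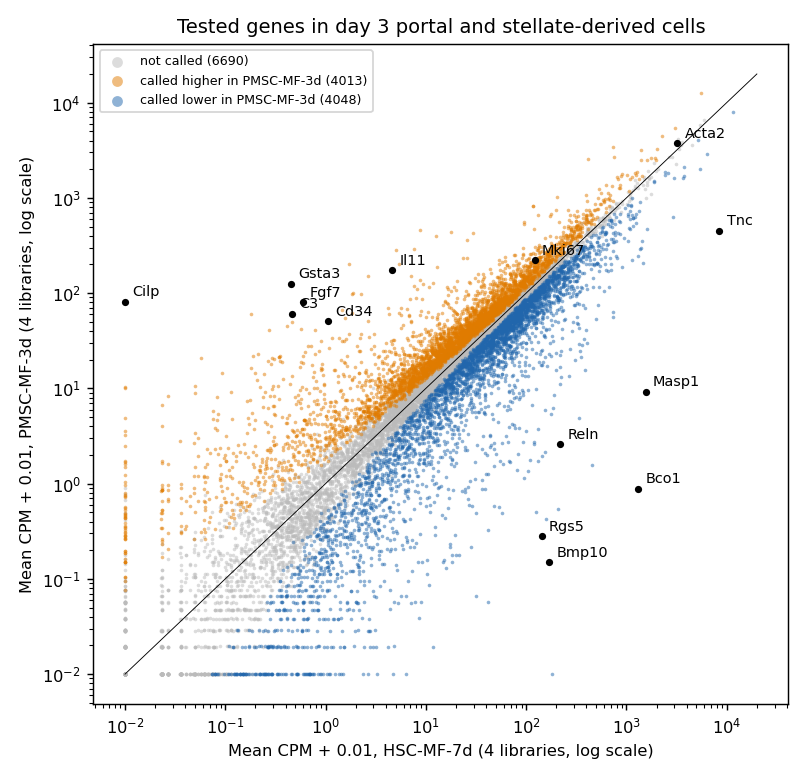
Mean CPM of each tested gene in the 4 HSC-MF-7d libraries (x axis, log scale) against the 4 PMSC-MF-3d libraries (y axis, log scale), with 0.01 CPM added to both. Orange points are the 4013 genes called higher in PMSC-MF-3d, blue points the 4048 called lower and grey points the rest, and some genes named in the text are labelled in black.

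The markers chosen for the comparison were Mki67, a nuclear protein of cycling cells, and Il11, a secreted cytokine of the IL-6 family that acts on fibroblasts. Mki67 lies on chromosome 7 from 135689784 to 135716450 of the GRCm38 (mm10) build. It stood at 221, 212, 235 and 219.8 CPM in the 4 day 3 portal libraries and at 117, 120.3, 114 and 138 in the 4 stellate-derived libraries. The groups did not overlap, and the difference was 0.86 ± 0.22 (edgeR adjusted p = 0.0026). At day 7 the portal cells averaged 262 ± 15.5 CPM, which differed from the stellate-derived cells by 1.10 ± 0.22 (adjusted p = 0.00039). Il11 lies on chromosome 7 from 4772373 to 4782907, and the spans given are whole genes with exons and introns. Its level was 169.5, 135, 212 and 185 CPM in the day 3 portal libraries and 4.05, 3.55, 3 and 7.75 in the stellate-derived libraries. Each portal library was far above each stellate-derived one, and the difference of 5.24 ± 0.37 (adjusted p = 8.7e-10) is 37.9-fold. At day 7 the portal libraries held 3.37, 8.36, 4.99 and 5.66 CPM, and their difference from the stellate-derived cells was 0.27 ± 0.35 (adjusted p = 0.56). The cells before culture averaged 30.3 ± 10.8 CPM in the portal and 0.213 ± 0.252 CPM in the stellate type. Of the cultured groups, the high level of Il11 was thus seen in the day 3 portal libraries, and between portal days it fell by 4.97 in log2 units (adjusted p = 9.4e-09).

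**Figure D2:**
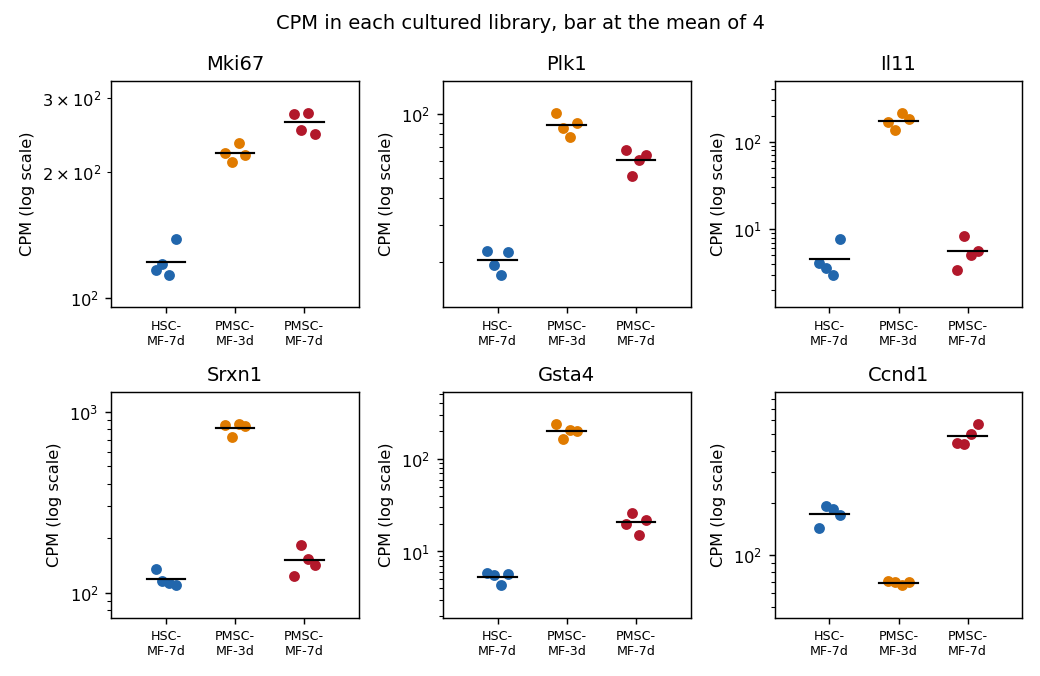
CPM (log scale) of 6 genes in each of the 12 cultured libraries, with a bar at the mean of 4 libraries. Mki67 and Plk1 were higher in both portal groups than in HSC-MF-7d, Il11, Srxn1 and Gsta4 were highest in PMSC-MF-3d, and Ccnd1 was lowest in PMSC-MF-3d and highest in PMSC-MF-7d.

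Genes of mitosis were higher in the day 3 portal cells, with 28 of 30 listed genes called and none lower, and a median log2 fold change of 1.28. The summed level of the list ran from 2238 to 2578 CPM in the day 3 portal libraries and from 1037 to 1229 in the stellate-derived ones. Plk1, a kinase that drives spindle assembly and exit from mitosis, held 100.4, 85.5, 78 and 90.1 CPM in the portal libraries and 22.6, 19.5, 17.5 and 22.4 in the stellate-derived libraries, with no overlap and a difference of 2.11 ± 0.21 (adjusted p = 8.4e-08). Aurkb, the kinase of the chromosomal passenger complex, differed by 1.86 ± 0.24, and Birc5, its partner survivin, by 1.64 ± 0.24. The mitotic cyclins Ccnb2 (1.75 ± 0.19) and Ccnb1 (1.503 ± 0.23) and the activator of the anaphase-promoting complex Cdc20 (1.58 ± 0.15) were also called, each with an adjusted p at or below 1.9e-05. The spindle motor Kif11 differed by 1.498 ± 0.19 and the topoisomerase Top2a by 1.14 ± 0.23. The 2 members that missed the threshold were Cenpe at 0.48 ± 0.21 (adjusted p = 0.059) and Anln at 0.26 ± 0.14 (adjusted p = 0.12). At day 7 all 30 were called higher in portal cells than in the stellate-derived cells, where the share called higher over all genes was 23.9% and lower 23.1%.

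The promoters of mitotic genes are known to carry paired elements, a CCAAT box bound by NF-Y and a cell cycle homology region bound by a repressor in resting cells. Since these genes moved together, 4 of their promoters are shown, from RefSeq on the GRCm38.p6 build. Each is the 150 bases before the listed start, with CCAAT and the core TTTGAA in capitals, read on either strand (ATTGG and TTCAAA).
Cdc20, chr4:118437344-118437493, minus strand: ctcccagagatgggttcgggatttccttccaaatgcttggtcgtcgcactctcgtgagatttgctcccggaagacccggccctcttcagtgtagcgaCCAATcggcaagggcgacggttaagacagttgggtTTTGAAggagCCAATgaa
Kif11, chr19:37376232-37376381, plus strand: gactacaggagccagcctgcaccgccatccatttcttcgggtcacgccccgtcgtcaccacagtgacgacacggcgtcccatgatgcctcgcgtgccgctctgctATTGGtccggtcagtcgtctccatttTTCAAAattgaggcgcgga
Ccnb2, chr9:70421555-70421704, minus strand: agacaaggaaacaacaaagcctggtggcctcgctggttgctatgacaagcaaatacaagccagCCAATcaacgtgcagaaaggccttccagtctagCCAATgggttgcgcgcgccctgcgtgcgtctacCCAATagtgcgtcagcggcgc
Top2a, chr11:99024190-99024339, minus strand: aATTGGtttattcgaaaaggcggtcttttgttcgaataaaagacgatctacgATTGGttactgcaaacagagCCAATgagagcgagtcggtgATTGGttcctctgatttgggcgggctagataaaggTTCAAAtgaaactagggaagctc
Cdc20, Kif11 and Top2a carry TTTGAA between 18 and 13, 19 and 14 and 23 and 18 bases before the start, respectively, and all 4 carry CCAAT. Of the 30 mitosis genes, 25 had a promoter in the table. In the 250 bases before the first listed start, 20 of these, or 80.0%, held CCAAT, against 34.5% of all 27025 promoters. TTTGAA was in 8, or 32%, against 16.3% of all. These shares describe letters in a window, and no binding was measured.

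Genes of DNA replication followed with a smaller difference, 24 of 30 called higher at day 3 and none lower (median 0.90). The licensing factor Cdt1 differed by 1.43 ± 0.19 (adjusted p = 3.4e-06). Of the subunits of the replicative helicase, Mcm5 differed by 1.37 ± 0.13, Mcm7 by 1.25 ± 0.10 and Mcm2 by 0.71 ± 0.10. The ligase Lig1 was at 1.37 ± 0.16 and the ribonucleotide reductase subunit Rrm1 at 1.19 ± 0.15, while the partner subunit Rrm2 was at 0.54 ± 0.11 (adjusted p at or below 0.00045 for each). The cyclin E genes of the entry into S phase were not called, with Ccne1 at 0.21 ± 0.29 and Ccne2 at 0.02 ± 0.14. Between the portal days, 17 of its members fell by day 7 and none rose, where 17.4% of all tested genes fell and 18.6% rose. At day 7 17 were above and 3 below the stellate-derived cells. In the mitosis list 2 members fell and none rose between the portal days.

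Inhibitors of the cell cycle and targets of p53 were mostly lower in the day 3 portal cells, 13 of 20 called lower and 4 higher (median -0.93). Pmaip1, the BH3-only protein Noxa, held 1.6, 1.46, 1.65 and 1.99 CPM in the portal libraries and 68, 67.3, 66.1 and 71.8 in the stellate-derived libraries, a difference of -5.34 ± 0.35 (adjusted p = 2.6e-10). All stellate-derived libraries were above all portal ones. The kinase inhibitor p21, Cdkn1a, was at 291 ± 14.7 CPM against 628 ± 5.87 (-1.11 ± 0.11), and Mdm2, the ligase that degrades p53, was at -1.28 ± 0.14. Cdkn2a, the locus of p16 and p19Arf, was at 0.992 CPM against 9.21 (-3.21 ± 0.43) and Cdkn2b, or p15, at 5.14 against 22.4 (-2.12 ± 0.29). The adjusted p of these was at or below 4.8e-06. At day 7 6 of the list were above the stellate-derived cells and 8 below. By then Cdkn2a and Cdkn2b averaged 10.3 and 29.4 CPM in the portal cells. Their differences from the stellate-derived cells were then 0.17 ± 0.38 and 0.39 ± 0.28 (adjusted p = 0.75 and 0.26). The gene of p53 itself, Trp53, was higher at day 3 by 0.58 ± 0.09. Among the inhibitors called higher were Cdkn2c (0.86 ± 0.15) and Cdkn2d (0.58 ± 0.15), p18 and p19 of the INK4 family. The other lower genes with over 10 CPM and the largest differences were Trp53inp1 (-2.60 ± 0.17), which promotes autophagy and death, the antiproliferative gene Btg2 (-2.09 ± 0.20) and the growth arrest gene Gadd45a (-1.63 ± 0.19), with adjusted p at or below 0.003 for these 6.

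Cyclin D1, Ccnd1, which links growth factor signals to the cycle, went the other way from the mitosis genes. It stood at 71.1, 69.8, 66.7 and 69.4 CPM in the day 3 portal libraries and at 142, 191, 184 and 169.7 in the stellate-derived libraries, all of them higher, a difference of -1.31 ± 0.12 (adjusted p = 1.7e-08). In the day 7 portal libraries it stood at 442, 434, 501 and 570.3 CPM, above both, and the difference from the stellate-derived cells was 1.503 ± 0.12 (adjusted p = 3.4e-09). An exon of Ccnd1 overlaps one of a gene on the opposite strand, so reads of both may be counted together.

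The IL-6 family signals through the shared receptor chain gp130, encoded by Il6st, with private chains for each ligand. Of its 15 tested genes, 6 were higher in the day 3 portal cells and 3 lower. Beside Il11, the ligand Clcf1, which acts on the ciliary neurotrophic factor receptor, was higher. It averaged 71.6 ± 13.1 CPM against 16.8 ± 2.17 (2.09 ± 0.20). Lif, the leukaemia inhibitory factor, averaged 128 ± 14.8 CPM against 54.2 ± 13.6 (1.24 ± 0.29). Of the receptors, the private chain for IL-11, Il11ra1, was higher by 1.11 ± 0.15 and Osmr, the oncostatin M receptor, by 0.50 ± 0.21 (adjusted p = 0.049). The call of Osmr was lost when a library other than PMSC-MF-3d replicate 1 or HSC-MF-7d replicate 4 was left out. The LIF receptor Lifr was at -1.32 ± 0.20 and the receptor chain Cntfr at -1.20 ± 0.22, both lower. Il6 itself was low, at 7.99 CPM against 23 (-1.52 ± 0.31). The adjusted p of the called genes other than Osmr was at or below 0.0013. Il6st was at -0.21 ± 0.13 (adjusted p = 0.17), Stat3, the transcription factor of the pathway, at -0.11 ± 0.12 and its target Socs3 at 0.10 ± 0.23, and none of these passed. At day 7 Clcf1 was still above the stellate-derived level, by 1.09 ± 0.19, whereas Lif was below it at -1.001 ± 0.29 (adjusted p = 0.0085).

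Antioxidant genes, many of them targets of the transcription factor Nrf2, were higher in the day 3 portal cells, 11 of 18 called higher and 3 lower. Srxn1, sulfiredoxin, which repairs oxidised peroxiredoxins, held 849, 726, 856 and 831 CPM in the portal libraries and 135, 116, 113 and 109.7 in the stellate-derived libraries (2.78 ± 0.15, adjusted p = 1.7e-11). Gsta4, a glutathione transferase for lipid aldehydes, held 239, 165, 204 and 203 CPM against 5.89, 5.52, 4.29 and 5.74 (5.23 ± 0.23, adjusted p = 1.9e-12). Both genes were without overlap between the groups. The peroxiredoxin Prdx1 averaged 3400.1 ± 289 CPM against 734 ± 41.2 (2.21 ± 0.11). The glutathione synthesis subunits Gclm (1.95 ± 0.15) and Gclc (1.21 ± 0.16) and the quinone reductase Nqo1 (1.90 ± 0.14) were higher as well, with the 4 adjusted p at or below 2.5e-06. Another glutathione transferase, Gsta3, is among the genes with the largest differences, at 125 ± 6.37 CPM against 0.446 ± 0.127 (8.08 ± 0.53). Haem oxygenase, Hmox1, was abundant in both at 1902 and 1627 CPM and was not called (0.23 ± 0.27, adjusted p = 0.5). The metallothioneins Mt1 (-0.29 ± 0.21) and Mt2 (-0.35 ± 0.26) were not called. The glutathione peroxidases Gpx4 (-0.42 ± 0.09) and Gpx3 (-1.56 ± 0.29) were lower. Most of the list was lower at the later portal day, with 15 of its genes falling from day 3 to day 7 and 1 rising. At day 7 4 members were above the stellate-derived cells and 8 below. Srxn1 was then at 151 CPM (0.35 ± 0.14, adjusted p = 0.046), Gclm at 121 (0.00 ± 0.14, adjusted p = 1.0) and Prdx1 at 627 (-0.23 ± 0.10, adjusted p = 0.08), while Hmox1 was at 463 (-1.81 ± 0.28, adjusted p = 2.1e-05).

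The promoters of Srxn1 and Prdx1 were searched for motifs of AP-1 and Nrf2. In the 150 bases before the listed start, TGANTCA (AP-1) and TGACNNNGC (antioxidant response element), either strand, are in capitals, and in Prdx1 a match of each overlaps the other, while the stretch of Srxn1 holds matches of TGANTCA alone. The second motif was added after the values were seen.
Srxn1, chr2:152105374-152105523, plus strand: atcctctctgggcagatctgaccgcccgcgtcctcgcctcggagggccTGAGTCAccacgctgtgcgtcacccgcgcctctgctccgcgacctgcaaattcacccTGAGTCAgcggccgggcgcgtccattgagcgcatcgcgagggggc
Prdx1, chr4:116685449-116685598, plus strand: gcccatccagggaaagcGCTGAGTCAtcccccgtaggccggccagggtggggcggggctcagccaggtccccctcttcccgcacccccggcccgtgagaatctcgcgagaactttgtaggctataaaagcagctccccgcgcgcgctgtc
Of the 18 listed genes, 14 had a promoter in the table. In the 250 bases before the start, TGACNNNGC was in 4 (28.6%, against 10.1% of all promoters). TGANTCA was in 3 (21.4%, against 6.87%).

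Amino acid supply genes were higher in the day 3 portal cells, 14 of 19 called higher and 2 lower (median 1.08). Slc7a11, the cystine importer that feeds glutathione synthesis, held 323, 363, 406 and 356 CPM in the portal libraries and 35.3, 24.1, 23.6 and 20.3 in the stellate-derived libraries, all lower (3.81 ± 0.26, adjusted p = 5.6e-10). The mitochondrial folate enzyme Aldh1l2 was at 2.13 ± 0.20, the leucine transporter Slc7a5 at 1.93 ± 0.15 and the heavy chain both carriers share, Slc3a2, at 1.08 ± 0.13. The serine synthesis enzymes Phgdh (1.41 ± 0.14), Psat1 (1.23 ± 0.19) and Psph (0.58 ± 0.15) were higher, as was the mitochondrial serine hydroxymethyltransferase Shmt2 (1.54 ± 0.14). The adjusted p of these genes was at or below 0.0034. The stress factor Ddit3, or CHOP, was lower at -1.52 ± 0.15. At day 7 14 members were above the stellate-derived cells, and Slc7a11 had come down to 51.8 CPM. Among genes of the respiratory chain 11 of 24 were higher and 2 lower, but the differences were small, with a median of 0.20 and the largest, the ATP synthase subunit Atp5a1, at 0.72 ± 0.06. In the day 7 portal cells 3 of these 24 genes were above the stellate-derived cells and 7 below. Among glycolysis and hypoxia genes 2 of 22 were higher and 11 lower in the day 3 portal cells. Bnip3, a mitophagy receptor induced by hypoxia, was at -1.97 ± 0.15, the glycolytic regulator Pfkfb3 at -1.47 ± 0.22 and hexokinase Hk1 at -1.21 ± 0.10, whereas the glucose transporter Slc2a1 was higher by 0.80 ± 0.13. At day 7 Slc2a1 was on the other side of the stellate-derived cells (-0.56 ± 0.13, adjusted p = 0.0012). For cholesterol synthesis the counts were 3 higher and 7 lower of 20, with the desaturase Sc5d at -1.02 ± 0.25. For folding in the endoplasmic reticulum they were 6 and 5 of 18, from the retrieval receptor Kdelr3 at 0.80 ± 0.13 to the co-chaperone Dnajb9 at -1.11 ± 0.09. The adjusted p of the called genes in the sentences on metabolism was at or below 0.0019.

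**Figure D3:**
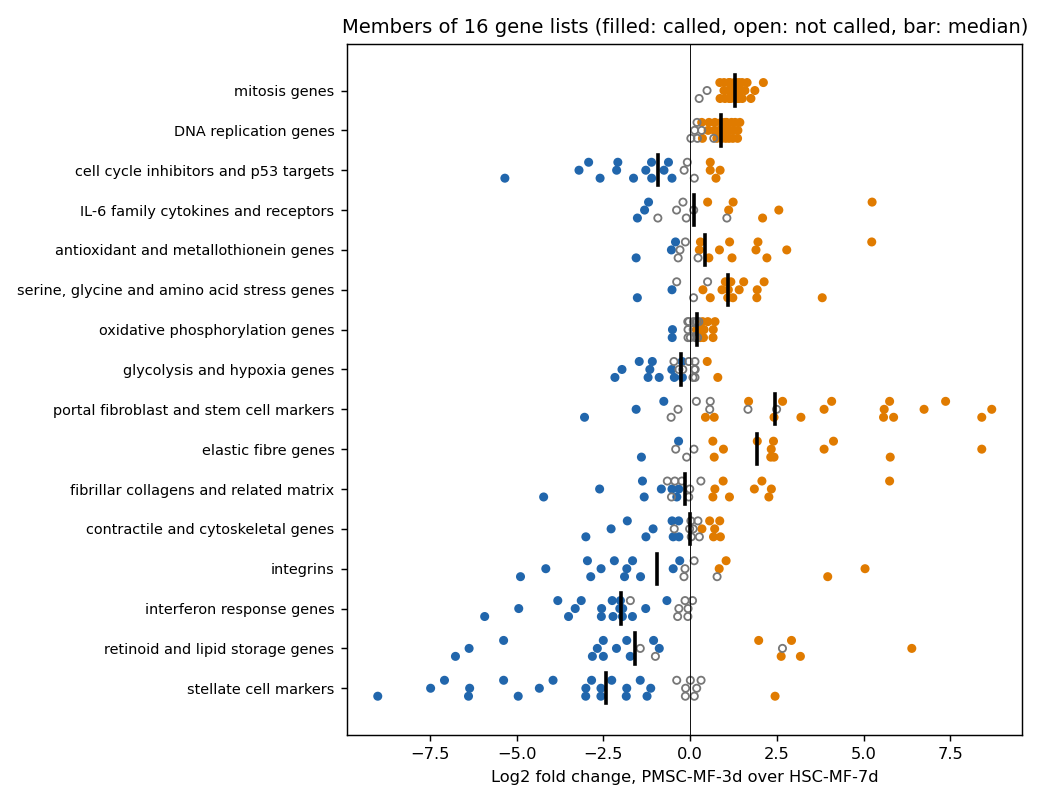
Log2 fold change of PMSC-MF-3d over HSC-MF-7d (x axis) for each tested member of 16 gene lists (rows). Filled points were called at an edgeR adjusted p under 0.05, open points were not, and the bar is the median of the list. The mitosis and elastic fibre lists lie mostly to the right, and the stellate marker and interferon lists mostly to the left.

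Markers of the 2 source cells were compared next. These lists, like the others, were chosen with earlier results of the data known, so their direction is no independent evidence. Of 26 portal fibroblast markers 16 were higher in the day 3 portal cells and 3 lower, with a median of 2.45, or 2.05 with a gene that had no count in 1 group set at its bound of 3 counts. The 3 lower genes were Cd248, Gpx3 and the mesothelial gene Msln, and without any 1 of 5 libraries (PMSC-MF-3d replicates 2, 3 or 4, HSC-MF-7d replicates 1 or 2) 1 stayed called. Of 28 stellate markers 20 were lower and 1 higher (median -2.42). Cd34, a surface sialomucin of progenitors and fibroblasts, held 66.2, 40.8, 49.6 and 47.1 CPM in the portal libraries and 1.37, 0.659, 0.749 and 1.43 in the stellate-derived libraries (5.57 ± 0.36). Thy1, a surface glycoprotein of fibroblasts, held 59.1, 72.7, 59.3 and 88.6 CPM against 7.83, 1.37, 4.84 and 2.6 (4.08 ± 0.39). Slit2, a secreted guidance protein, held 156, 149, 149 and 159 CPM against 2.37, 1.77, 3.27 and 3.19 (5.86 ± 0.42). In all 3 genes every portal library was above every stellate-derived library, with adjusted p at or below 5.2e-08. Dermatopontin, Dpt, a small protein of the collagen matrix, averaged 14.7 ± 1.81 CPM against 0.083 ± 0.0664 (7.36 ± 0.68). The binding protein Igfbp6 was at 49.5 ± 11.9 CPM against 0.453 ± 0.698 (6.74 ± 0.51). The hyaluronan synthase Has1 had 880 counts over the 4 portal libraries and 1 over the stellate-derived ones, a ratio of 595 (95% counting interval 107 to 23544). Gli1, a hedgehog transcription factor used to trace portal cells, was low at 0.709 and 0.206 CPM and was not called (1.67 ± 0.79, adjusted p = 0.084), though without HSC-MF-7d replicate 2 it was. Cd248, or endosialin, was at -0.76 ± 0.32 (adjusted p = 0.049), a call lost without any 1 library, and at day 7 it was above the stellate-derived cells by 2.10 ± 0.33 (adjusted p = 2.8e-05). In the day 7 portal cells Thy1 averaged 495 ± 104 CPM and Cd34 14.4 ± 8.61.

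On the stellate side, Reln, a secreted glycoprotein, held 1.64, 3.07, 3.01 and 2.6 CPM in the day 3 portal libraries and 205, 227, 216 and 222 in the stellate-derived libraries (-6.39 ± 0.36). Rgs5, a regulator of G protein signalling in pericytes, held 0.342, 0, 0.624 and 0.113 CPM against 121, 145, 169 and 137 (-9.01 ± 0.39). Desmin, Des, the muscle intermediate filament used to stain stellate cells, held 13.7, 20.9, 21.3 and 14.7 CPM against 135, 152, 137 and 145 (-3.01 ± 0.20), and the LIM transcription factor Lhx2 3.29 ± 0.948 against 26.5 ± 2.07 (-3.01 ± 0.33). The groups did not overlap in Reln, Des or Lhx2, and adjusted p of these genes and Rgs5 were at or below 3e-07. Before culture Des averaged 163 CPM in the portal and 216 CPM in the stellate type and was not called (-0.41, edgeR adjusted p = 0.052). Reln, Rgs5 and Lhx2 were lower in the portal type before culture as well. The endothelin receptor Ednrb, which relays a contractile signal, averaged 0.204 ± 0.227 CPM against 17.4 ± 1.97 (-6.36 ± 0.47), and Colec10, a collectin, had no count in the portal libraries and was at least 38.8-fold lower there against 3 counts over the group. Lrat, which makes the retinyl esters of the stellate lipid droplet, was low in both, with 1 count over the 4 portal libraries and 46 over the stellate-derived ones, a ratio of 68 (95% counting interval 11.6 to 2743) for the latter over the former. Not every stellate marker separated the groups. The transcription factor Hand2 (-0.13 ± 0.15) and the receptor Pdgfrb (0.19 ± 0.16) were among the 7 that were not called, and Cygb, cytoglobin, was higher in the portal cells (2.45 ± 0.54). Other genes of vitamin A and lipid storage were mostly lower, 12 of 20 against 5 higher. The retinal dehydrogenase Aldh1a1 averaged 74.5 ± 13.4 CPM against 526 ± 49 (-2.82 ± 0.16), the retinoic acid receptor Rarb 1.14 ± 0.117 against 95.3 ± 23.2 (-6.37 ± 0.26) and the lipid droplet coat protein Plin2 102 ± 8.37 against 339 ± 16.3 (-1.73 ± 0.12). The sister enzymes Aldh1a2 (2.62 ± 0.68) and Aldh1a3 (3.18 ± 0.36) were higher in the portal cells. Bco1, which cleaves beta-carotene to retinal, held 0.723, 0.675, 0.88 and 1.2 CPM in the portal libraries and 1350.0, 1285, 1352 and 1263 in the stellate-derived libraries, one of the largest differences of all (-10.55 ± 0.34). Adjusted p of these 6 genes were at or below 0.0028. Before culture Aldh1a1 was higher in the portal type, at 401 CPM against 301 in the stellate type (0.41, edgeR adjusted p = 0.02). Aldh1a2 and Aldh1a3 were also higher there before culture, and Rarb, Plin2 and Bco1 lower. The retinoic acid-degrading enzyme Cyp26b1 was at 3.77, 1.31, 1.32 and 3.42 CPM in the portal libraries and 1.89, 17.4, 9.4 and 14 in the stellate-derived ones, which overlap (-2.13 ± 0.56, adjusted p = 0.0033), and at 52.7 CPM in the day 7 portal cells (2.30 ± 0.50, adjusted p = 0.00086).

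**Figure D4:**
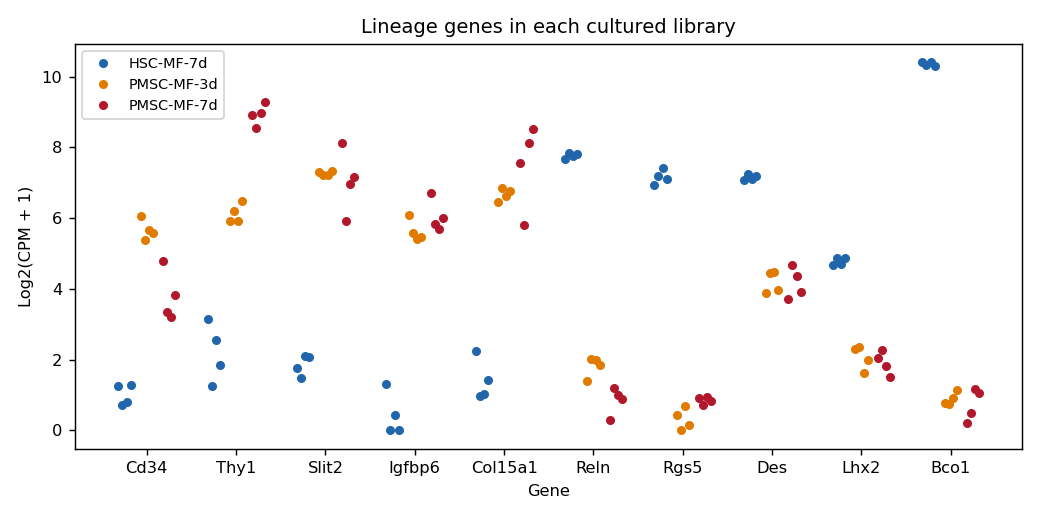
Log2(CPM + 1) of 10 lineage genes in the day 3 portal (orange), day 7 portal (red) and stellate-derived (blue) libraries, 4 points each. Cd34, Thy1, Slit2, Igfbp6 and Col15a1 were higher in both portal groups, and Reln, Rgs5, Des, Lhx2 and Bco1 in the stellate-derived group. Des was not called between the cell types before culture.

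Markers of other liver cells were checked in the same libraries. Of 21 hepatocyte genes 2 were called, Apob and Trf, both lower in the portal cells (1 without PMSC-MF-3d replicates 2, 3 or 4 or HSC-MF-7d replicate 1), and albumin, Alb, was at 0.317 and 0.392 CPM. Of 18 endothelial genes 13 were lower in the portal cells and 2 higher, and their summed level was 53.4 to 79.3 CPM in the day 3 portal libraries and 232 to 303 in the stellate-derived ones. Most of the latter came from Plvap, a protein of endothelial fenestrae (0.42 ± 0.163 against 157 ± 33.9 CPM), and the adhesion molecule Esam (3.85 ± 1.03 against 77.1 ± 8.41 CPM). The defining genes Pecam1, Cdh5 and Stab2 were at 2.11, 3.44 and 1.02 CPM in the stellate-derived cells and at 0.234, 0.45 and 0.0848 in the portal cells. Of 15 leukocyte genes 8 were lower and 1 higher, with sums of 34.9 to 45.9 and 36 to 61.9 CPM. Adgre1, which encodes F4/80, had no count in the portal cells and 0.885 CPM in the stellate-derived cells, Ptprc (CD45) was at 0.0463 and 0.511 CPM and lysozyme Lyz2 at 0.904 and 26.4. The 1 member that was higher in the portal cells was the receptor Csf1r, at 36 ± 4.77 CPM against 8.5 ± 1.12 (2.08 ± 0.35). Of 15 bile duct and mesothelial genes 4 were higher and 6 lower, with sums of 90.2 to 124 and 73.3 to 125 CPM. Without HSC-MF-7d replicate 1 the lower members numbered 3. Epcam was at 0.037 and 0.309 CPM and Krt19 at 1.73 and 11.1. Of 13 smooth muscle and pericyte genes 2 were higher and 7 lower. The proteoglycan NG2, Cspg4, averaged 98.4 ± 54 CPM against 2.25 ± 3.37 (5.41 ± 0.67), Rgs4 0.486 ± 0.328 against 57.3 ± 5.19 (-6.86 ± 0.34) and the adhesion molecule Mcam 10.7 ± 1.12 against 76.1 ± 10.4 (-2.82 ± 0.26). At day 7 Mcam averaged 141 ± 28.3 CPM, above the stellate-derived cells by 0.89 ± 0.24 (adjusted p = 0.0043), and 6 members of the list were then higher and 5 lower. Without HSC-MF-7d replicate 3, 1 member was higher at day 3. In bulk RNA fewer cells of a type and less RNA per cell cannot be told apart, and the part of other cells in the differences between the groups was not tested.

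Markers of the myofibroblast state were abundant in both groups. The alpha smooth muscle actin gene Acta2 lies on chromosome 19 from 34240336 to 34255585. It stood at 3706, 3999, 3419.6 and 3903 CPM in the day 3 portal libraries and 3472, 3204, 2697 and 3499 in the stellate-derived libraries, ranges that overlap (0.22 ± 0.19, adjusted p = 0.33). At day 7 the portal libraries averaged 6059.6 ± 398 CPM, above the stellate-derived cells by 0.91 ± 0.19 (adjusted p = 0.0005). Tagln, or SM22, averaged 2246 ± 67.3 CPM against 3091 ± 297 and was not called (-0.46 ± 0.22, adjusted p = 0.085). Of 22 contractile and cytoskeletal genes 6 were higher and 9 lower in the day 3 portal cells. Beside desmin, the lower genes with the largest differences were the smooth muscle myosin Myh11 (75.2 ± 22.3 against 365 ± 71.9 CPM, -2.28 ± 0.27), calponin Cnn1 (66.4 ± 7.07 against 233 ± 30.9 CPM, -1.81 ± 0.21) and the myosin light chain kinase Mylk (-1.28 ± 0.16). Vimentin, Vim, was higher at 0.85 ± 0.11 and the enteric smooth muscle actin Actg2 at 0.67 ± 0.22, a call lost without HSC-MF-7d replicate 3. Cnn1 crossed over with time, at 398 ± 25.8 CPM in the day 7 portal cells and then above the stellate-derived cells by 0.77 ± 0.20 (adjusted p = 0.0042). Myh11 averaged 362 ± 74.9 CPM at day 7 and differed from the stellate-derived cells by -0.01 ± 0.26 (adjusted p = 0.99). Of the 22 contractile and cytoskeletal genes, 10 were higher and 3 lower at day 7 than in the stellate-derived cells. Integrins, the receptors that tie the cell to its matrix, were mostly lower in the day 3 portal cells, 12 of 20 against 4 higher. At day 7 the counts were 7 higher and 10 lower. At day 3 the common beta chain Itgb1 averaged 1992 ± 108 CPM against 5374 ± 115 (-1.43 ± 0.09). Its collagen-binding partners Itga1 and Itga2 were at -2.96 ± 0.21 and -4.16 ± 0.44, and Itga4 at -4.89 ± 0.41. The laminin-binding chain Itga3 was at -2.87 ± 0.20 and Itgb3 at -2.57 ± 0.32. The fibronectin receptor chain Itga5 was higher, at 1655 ± 108 CPM against 808 ± 113 (1.03 ± 0.16). Each of these 7 had adjusted p-values at or below 2.3e-05. Of 19 genes of the YAP pathway 9 were lower and none higher, most by little (median -0.31), and the classical targets Ctgf (-0.31 ± 0.21) and Cyr61 (0.32 ± 0.18) were not called. The transcription factor Tead4 was at -1.73 ± 0.36 and the kinase Lats2 at -1.06 ± 0.12. Nt5e, the ectonucleotidase CD73, had the largest difference of the list, at 2.16 ± 0.667 CPM against 155 ± 6.8 (-6.16 ± 0.28).

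Of 24 fibrillar and associated matrix genes 9 were higher in the day 3 portal cells and 8 lower. Col15a1, a collagen of the border between basement membrane and stroma, held 87.1, 114, 97 and 107 CPM in the portal libraries and 3.73, 0.963, 1.02 and 1.7 in the stellate-derived libraries (5.75 ± 0.58), with every portal library higher. The type I chains Col1a1 and Col1a2, the main collagen of scar, averaged 4415 ± 548 and 2719 ± 268 CPM against 2285 ± 93.6 and 755 ± 71.4 (0.95 ± 0.30 and 1.85 ± 0.14). Col6a3 averaged 662 ± 59.7 CPM against 131 ± 35.9 (2.34 ± 0.22), while its partner chain Col6a1 was at -0.04 ± 0.27 and not called. Tenascin C, Tnc, a matrix protein of wounds, held 478, 485, 441 and 409 CPM in the portal libraries and 7000.4, 8933, 8933 and 9048 in the stellate-derived libraries, all of them higher (-4.23 ± 0.26). Periostin, Postn, was lower at -1.33 ± 0.19 and thrombospondin 2, Thbs2, was at -2.61 ± 0.27. The adjusted p of the called genes in these sentences was at or below 0.012. Fibronectin, Fn1, was at -0.39 ± 0.15 (adjusted p = 0.035), a call that stayed without HSC-MF-7d replicate 3 and was lost without any other single library. From day 3 to day 7 14 of the list rose in the portal cells and 1 fell, and Col1a1 reached 9813 ± 1308 CPM. Fibronectin reached 8667 ± 1189.8 CPM, above the stellate-derived cells by 1.84 ± 0.15 (adjusted p = 9.8e-09), so its direction depends on the portal day.

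**Figure D5:**
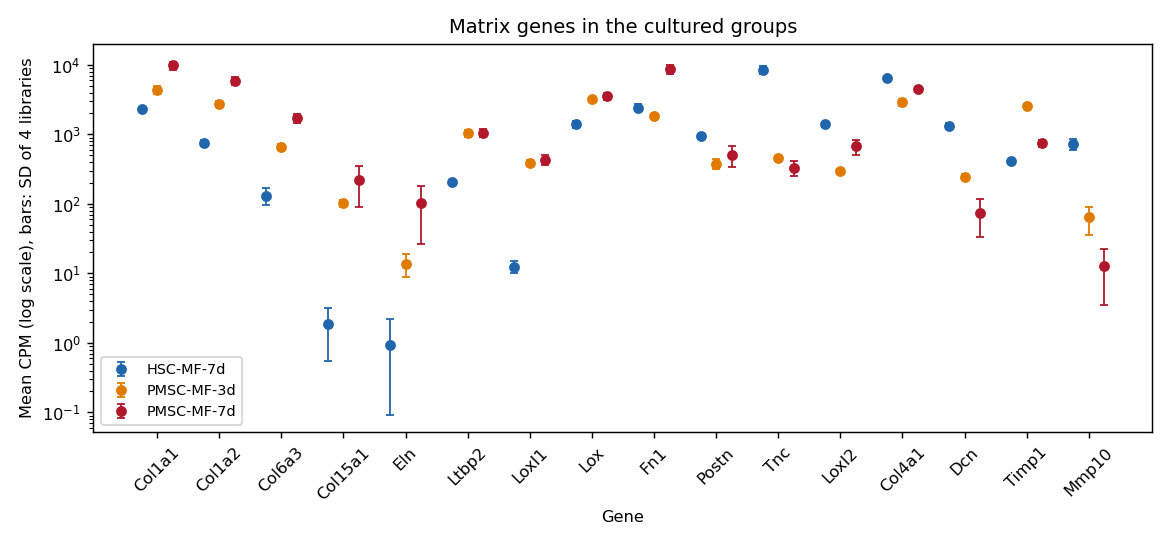
Mean CPM (log scale) of 16 matrix genes in the stellate-derived (blue), day 3 portal (orange) and day 7 portal (red) groups, with bars of 1 SD over 4 libraries, the lower bar of Eln in HSC-MF-7d shortened to stay above 0. Loxl1, Col15a1 and Eln were higher in both portal groups, Tnc, Loxl2 and Mmp10 in the stellate-derived group, and Fn1 was highest in the day 7 portal cells.

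Of the enzymes that process collagen, 7 of 22 were higher and 8 lower in the day 3 portal cells. The lysyl oxidases, which cross-link collagen and elastin, went in both directions. Loxl1 held 447, 372, 353 and 402 CPM in the portal libraries and 15.8, 10.1, 12.1 and 12.1 in the stellate-derived libraries (4.97 ± 0.22), and Loxl2 held 282, 324, 277 and 303 against 1254, 1495, 1361 and 1485 (-2.24 ± 0.17). Neither gene overlapped between the groups. Lox was higher at 1.19 ± 0.30 and Loxl4 lower at -1.30 ± 0.21, all 4 with adjusted p at or below 0.0021. Elastic fibre genes were mostly higher, 12 of 17 against 2 lower (median 1.93). Elastin, Eln, averaged 13.9 ± 4.93 CPM against 0.929 ± 1.28 (3.86 ± 0.88) and rose to 104 ± 77 CPM by day 7. The glycoprotein Emilin2 was at 5.77 ± 0.54 and the latent TGF-beta binding protein Ltbp2 averaged 1029.8 ± 123 CPM against 204 ± 15.8 (2.34 ± 0.30). Fibrillin 2, Fbn2, was at 4.13 ± 0.58 and the microfibril protein Mfap5 at 2.40 ± 0.51. Fibulin Efemp1 was lower, at -1.41 ± 0.23, and at day 7 above the stellate-derived cells by 0.73 ± 0.22. Of the 2 lower members, 1 stayed called when any single library but HSC-MF-7d replicate 1 was left out. Basement membrane genes gave 8 higher and 11 lower of 22. Among the laminin alpha chains Lama4 was higher (189.9 ± 7.69 against 12.9 ± 1.64 CPM, 3.88 ± 0.22) and Lama1 lower (0.205 ± 0.16 against 27.9 ± 3.99 CPM, -7.04 ± 0.38), and the gamma chain Lamc3 was higher (5.12 ± 0.64). The abundant collagen IV chains Col4a1 (-1.13 ± 0.10) and Col4a2 (-0.90 ± 0.10) and the nidogens Nid1 (-1.17 ± 0.14) and Nid2 (-1.81 ± 0.20) were lower. Of the small proteoglycans, decorin, Dcn, was lower at 247 ± 19.8 CPM against 1314 ± 122 (-2.41 ± 0.24), Prelp was at -3.81 ± 0.40 and fibromodulin, Fmod, was higher at 4.64 ± 0.69. From Eln on, the called genes had adjusted p-values at or below 0.00098.

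Enzymes that degrade matrix gave 7 higher and 9 lower of 21. Timp1, an inhibitor of matrix metalloproteinases, held 2729.8, 2404, 2392 and 2641 CPM in the day 3 portal libraries and 425, 417, 394 and 417 in the stellate-derived libraries, with no overlap (2.62 ± 0.29). Timp3 was at 626 ± 73 CPM against 2918 ± 247 (-2.22 ± 0.13), the reverse. The collagenase Mmp13 (53.9 ± 26.9 against 499 ± 137 CPM, -3.21 ± 0.48), the stromelysin Mmp10 (63.7 ± 27.6 against 727 ± 135 CPM, -3.51 ± 0.43) and urokinase Plau (33.3 ± 4.81 against 375 ± 46.3 CPM, -3.49 ± 0.25) were lower. The gelatinase Mmp2 was higher at 1.39 ± 0.18. Adjusted p of these 6 were at or below 1.2e-05. At day 7 12 of the list were higher than in the stellate-derived cells and 7 lower.

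Secreted signals differed member by member. Of 29 growth factors and receptors 14 were higher in the day 3 portal cells and 13 lower. Fgf7, keratinocyte growth factor, which acts on epithelium, held 93.6, 67.5, 84.6 and 74.1 CPM in the portal libraries and 1.1, 0.709, 0.136 and 0.372 in the stellate-derived libraries (7.03 ± 0.45). Fgf10, a close relative with the same receptor, had 970 counts over the 4 portal libraries and 3 over the stellate-derived ones, a ratio of 219 (95% counting interval 74.6 to 1063). Hepatocyte growth factor, Hgf, held 13.8, 16.3, 17.2 and 17.9 CPM against 101, 117, 132 and 119 (-2.84 ± 0.32), with every stellate-derived library higher. The insulin-like growth factor Igf1 was higher at 1.93 ± 0.25 and the receptor Fgfr2 lower at -3.26 ± 0.24. Among its binding proteins Igfbp4 averaged 149.8 ± 42.3 CPM against 7.1 ± 0.497 (4.40 ± 0.23) and Igfbp3 8.61 ± 2.58 against 25.5 ± 5.65 (-1.57 ± 0.38), and the list of binding proteins held 4 higher and 5 lower members of 12. The angiopoietin Angpt2, an antagonist of the endothelial receptor Tie2, averaged 0.579 ± 0.146 CPM against 11.1 ± 1.85 (-4.24 ± 0.51). Of the ligands of the platelet-derived growth factor receptors Pdgfc was higher (2.499 ± 0.20) and Pdgfd lower (-1.92 ± 0.16). For the called genes so far the adjusted p was at or below 0.0016. The receptor Pdgfra was at 0.44 ± 0.17 (adjusted p = 0.038), a call lost without PMSC-MF-3d replicates 2 or 3 or HSC-MF-7d replicates 1, 2 or 4.

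Among ligands of bone morphogenetic protein receptors, Bmp10 had one of the largest differences of all genes. Bmp10, which is made by stellate cells in the adult liver, held 0.114, 0.15, 0.22 and 0.0752 CPM in the day 3 portal libraries and 120.3, 195, 169 and 197 in the stellate-derived libraries (-10.18 ± 0.38, adjusted p = 2.5e-13). Bmp5 averaged 2.73 ± 1.1 CPM against 121 ± 9.15 (-5.47 ± 0.36), Gdf6 42.5 ± 6.97 against 226 ± 48.4 (-2.41 ± 0.19) and Gdf2, or BMP9, 0.14 ± 0.0336 against 8.27 ± 0.734 (-5.82 ± 0.41). Over the list of ligands and antagonists 7 of 19 were higher and 8 lower. TGF-beta pathway genes gave 8 in each direction of 22, with the ligand Tgfb1 at 0.51 ± 0.08, Tgfb2 at -1.33 ± 0.13 and Tgfb3 at -1.28 ± 0.21, and the inhibitor follistatin, Fst, at 2.08 ± 0.42. Tgfb1 was below the stellate-derived level at day 7, by -1.57 ± 0.08 (adjusted p = 2.1e-11). The signal transducer Smad3 was at -1.40 ± 0.18 and Pmepa1, a feedback inhibitor, at 1.30 ± 0.16. In the Wnt list 7 of 20 were higher and 6 lower. Of the R-spondins, which enhance Wnt signals, Rspo1 had 261 counts in the portal libraries and none in the stellate-derived ones, at least 58.9-fold higher against 3 counts over the group. Rspo3 averaged 4.43 ± 0.214 CPM against 52.7 ± 7.33 (-3.57 ± 0.24). Secreted Wnt inhibitors also lay on both sides, Sfrp1 at 3.40 ± 0.61, Frzb at -4.29 ± 0.37 and Dkk2 at -5.10 ± 0.46. Hedgehog pathway genes gave 6 higher, among them the transducer Smo (1.60 ± 0.17), and 2 lower of 12, one of them the inhibitor Hhip (-2.57 ± 0.32). Of 14 Notch genes 8 were lower, with Notch1 at -0.97 ± 0.18 and the ligand Jag1 at -1.12 ± 0.17, and 1 was higher, the modifier Lfng (3.42 ± 0.27). Adjusted p of the called genes from Bmp5 on were at or below 0.00031.

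Axon guidance genes, which also steer endothelial and mesenchymal cells, gave 9 higher and 12 lower of 27, and ligands and receptors of the Slit system lay on opposite sides. Beside Slit2, Slit3 averaged 33.9 ± 9.08 CPM against 1.16 ± 0.632 (4.90 ± 0.64). Their receptors Robo1 and Robo2 averaged 21.2 ± 2.29 and 28.6 ± 5.82 CPM against 101 ± 4.24 and 359.6 ± 23.9 (-2.25 ± 0.12 and -3.65 ± 0.25). Sema7a, a membrane-anchored semaphorin, was higher at 118 ± 11.3 CPM against 7.65 ± 1.9 (3.94 ± 0.37), and the secreted Sema3a and Sema3d were lower (-2.80 ± 0.17 and -2.55 ± 0.14). Adjusted p were at or below 2.7e-06. In the day 7 portal cells 9 of the list were higher and 14 lower.

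Transcription factors of liver mesenchyme were higher in the day 3 portal cells for 17 of 30 and lower for 6. The zinc finger factor Osr1 averaged 32.9 ± 2.23 CPM against 1.59 ± 0.493 (4.38 ± 0.28), Ebf1 24.7 ± 3.58 against 2.2 ± 1.23 (3.46 ± 0.36), the homeobox factor Prrx1 179.5 ± 32.6 against 43.3 ± 8.96 (2.05 ± 0.21) and Wt1 10.2 ± 2.91 against 0.212 ± 0.099 (5.58 ± 0.66). Twist1 (2.73 ± 0.34) and Sox9 (2.78 ± 0.38) were higher too. Lower were Tbx20 (15.2 ± 6.3 against 97.4 ± 4.97 CPM, -2.68 ± 0.36), Foxf1 (-1.62 ± 0.17), Tcf21 (-1.30 ± 0.24) and Lhx2. Gata4 (-0.10 ± 0.21), Gata6 (-0.28 ± 0.18) and Nr2f2 (-0.09 ± 0.14) were not called. HOX genes, which record position along the body axis, were higher for 7 of 17 and lower for 1. Hoxa3 averaged 21.1 ± 3.35 CPM against 6.1 ± 1.14 (1.79 ± 0.20) and Hoxa4 10.4 ± 1.49 against 2.27 ± 0.293 (2.19 ± 0.24), whereas Hoxb4 was lower (-0.62 ± 0.15). Adjusted p of the called factors were at or below 0.0016. Among immediate-early genes, which respond within minutes to serum or stress, 8 of 25 were higher and 13 lower. Egr2 (2.07 ± 0.29), Egr3 (3.10 ± 0.35) and Fosl1 (1.09 ± 0.22) were higher, and Fos (-2.05 ± 0.40), Dusp1 (-2.88 ± 0.18) and Atf3 (-3.63 ± 0.31) lower, each with an adjusted p at or below 0.00037. Among hyaluronan genes 6 of 14 were higher and 4 lower, and beside Has1 the synthase Has2 was lower at 74.1 ± 12 CPM against 173 ± 12.7 (-1.23 ± 0.36) and versican, Vcan, higher (0.71 ± 0.20). Imprinted and fetal growth genes gave 5 higher and 8 lower of 18. Peg3, a paternally expressed zinc finger gene, held 9.44, 20.7, 16.7 and 14.9 CPM in the portal libraries and 264, 429, 456 and 393 in the stellate-derived libraries, all of them higher (-4.64 ± 0.27). Dlk1 and Meg3, of one imprinted cluster and expressed from opposite parental copies, were both higher, Dlk1 at 10.7 ± 1.23 CPM against 0.286 ± 0.205 (5.18 ± 0.63) and Meg3 at 92.9 ± 3.42 against 24.5 ± 3.32 (1.92 ± 0.23). Adjusted p of these 5 were at or below 0.0072.

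Interferon response genes were lower in the day 3 portal cells, 17 of 24 called lower and none higher (median -1.98). Their levels were modest in either group, with sums of 144 to 158 CPM in the portal libraries and 246 to 294 in the stellate-derived ones. Bst2, or tetherin, a membrane protein that holds back budding viruses, held 7.65, 8.14, 10.1 and 9.07 CPM in the portal libraries and 29.8, 34.3, 34.3 and 37.2 in the stellate-derived libraries (-1.96 ± 0.19). The RNA sensor Ifih1, or MDA5, held 2.85, 4.01, 4.66 and 3.57 against 14.3, 18.5, 17.1 and 20.8 (-2.23 ± 0.24). Isg15, a ubiquitin-like modifier, averaged 0.411 ± 0.183 CPM against 5.92 ± 1.48 (-3.82 ± 0.45). Every stellate-derived library was above every portal library in these genes, with adjusted p at or below 6.9e-07. The transcription factors Irf9 (-0.15 ± 0.20) and Irf1 (-0.06 ± 0.18) were not called. At day 7 10 members were lower than in the stellate-derived cells and 1 higher. Genes of antigen presentation were lower for 9 of 16 and higher for 1. Beta-2 microglobulin, B2m, averaged 194 ± 5.29 CPM against 549 ± 11.6 (-1.502 ± 0.09), the immunoproteasome subunit Psmb8 1.78 ± 0.353 against 8.77 ± 0.804 (-2.30 ± 0.22) and Nlrc5, the regulator of class I genes, 0.195 ± 0.147 against 5.9 ± 0.271 (-4.87 ± 0.28). H2-K1 (-0.89 ± 0.10) and H2-D1 (-1.22 ± 0.10) were lower, but reads that the near-identical class I genes share make their values uncertain.

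Complement genes gave 6 higher and 8 lower of 20. C3, the central component, held 39.1, 80.7, 63 and 59.5 CPM in the day 3 portal libraries and 0.315, 0.355, 0.545 and 0.584 in the stellate-derived libraries (7.07 ± 0.87). C7 had 517 counts in the portal libraries and none in the stellate-derived ones, at least 117-fold higher against 3 counts. The C1 inhibitor Serping1 was lower at 25.6 ± 5.96 CPM against 144 ± 16.8 (-2.497 ± 0.35). Of 24 chemokines and mediators 6 were higher and 8 lower. The monocyte attractants Ccl2 and Ccl7 averaged 133 ± 35.2 and 42.8 ± 9.65 CPM against 53.8 ± 5.44 and 13.4 ± 2.01 (1.31 ± 0.36 and 1.67 ± 0.32). At day 7 Ccl2 averaged 37.9 ± 7.51 CPM and differed from the stellate-derived cells by -0.51 ± 0.36 (adjusted p = 0.27), and 3 of the chemokines and mediators were higher and 9 lower. At day 3 Cxcl14 averaged 5.31 ± 1.62 CPM against 178 ± 34 (-5.07 ± 0.47) and Cxcl12 665 ± 111 against 1126 ± 117 (-0.76 ± 0.19). The cyclooxygenase Ptgs2 was lower, at 1600.3 ± 152 CPM against 3673 ± 169 (-1.20 ± 0.33), and the prostaglandin E synthase Ptges higher (4.43 ± 0.30). Adjusted p of the called genes from C3 on were at or below 0.0049. Of the complement genes 7 were higher and 8 lower at day 7.

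Outside the lists, the largest differences with at least 20 CPM in the higher group included matrix and signalling genes. Cilp, a cartilage and stromal matrix protein, held 119.5, 61.3, 71.9 and 70.9 CPM in the day 3 portal libraries and had no count in the stellate-derived libraries, at least 1949-fold higher against 3 counts over the group. Thrombospondin 4, Thbs4, held 149, 27.9, 48.7 and 18.1 CPM against 0.473, 0, 0.204 and 0 (8.47 ± 1.25), a spread between the portal libraries wider than for the other genes here. Proenkephalin, Penk, averaged 20.8 ± 4.96 CPM against 0.0473 ± 0.0643 (8.77 ± 0.59). In the day 7 portal cells these 3 genes averaged 4.15, 3.63 and 0.537 CPM. The heat shock protein Hspb7 (6.87 ± 0.41), matrix Gla protein, Mgp (6.73 ± 0.86), vitrin, Vit (7.24 ± 0.46), the prostacyclin receptor Ptgir (6.89 ± 0.65) and the elongation factor Eef1a2 (6.85 ± 0.34) were also higher. On the stellate side Masp1, a protease of the lectin pathway, held 4.07, 13.3, 8.95 and 10.5 CPM in the portal libraries and 1447, 1612, 1624 and 1547 in the stellate-derived libraries (-7.40 ± 0.32). The nucleotide sugar receptor P2ry14 held 0.609, 1.87, 2.79 and 0.903 against 447, 466, 464 and 452 (-8.20 ± 0.53). Psg22, a pregnancy-specific glycoprotein of a family with near-identical members, whose values are therefore uncertain, had no count in the portal libraries and 179.7 ± 16.6 CPM in the stellate-derived ones, at least 6398-fold lower in the portal cells. The signalling protein Hcls1 (-9.63 ± 0.47), the adaptor Sorbs2 (-8.59 ± 0.51) and Dcaf12l1 (-7.95 ± 0.48) were lower as well. Adjusted p of the genes with a fold change in this paragraph were at or below 1.1e-05. By TPM, a unit scaled by gene length, which allows levels of different genes to be compared, the most abundant called genes included Rplp1, Timp1, Fth1, Vim and Lgals1 among the higher and Tmsb4x, Sparc, S100a11, Thbs1, Tmsb10 and Tpm1 among the lower. Timp1 was at 8067 TPM in the portal and 1419 TPM in the stellate-derived cells, and thymosin Tmsb10 at 1669 and 4757 TPM.

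Because the stellate day is uncertain, the same stellate libraries were set against both portal days. The day 7 portal cells differed from them in 3532 genes higher and 3409 lower, and the portal days differed from each other in 2744 genes that rose and 2566 that fell. The comparisons share libraries, so only values are given side by side. Beside Ccnd1, Cyp26b1, Cnn1, Mcam, Cd248, Efemp1, Fn1, Slc2a1, Tgfb1 and Lif, further genes passed at both days with opposite signs. Pi15, a secreted peptidase inhibitor, held 99.1, 198, 182 and 179 CPM at day 3, 18.1, 36, 25.5 and 19.3 at day 7 and 67.7, 66.1, 77.9 and 65.7 in the stellate-derived libraries, between the portal days (1.25 ± 0.28 and -1.49 ± 0.29). Mmd, a membrane protein of macrophage maturation, averaged 1228 ± 121, 283 ± 81.8 and 539 ± 38.8 CPM in the same order (1.19 ± 0.16 and -0.93 ± 0.16). Gpm6b (1.06 ± 0.21 and -1.42 ± 0.22), Sema3c (0.995 ± 0.37 and -1.03 ± 0.37), Wnt2 (1.33 ± 0.29 and -0.91 ± 0.30) and the ferritin heavy chain Fth1 (0.85 ± 0.11 and -0.31 ± 0.11) were likewise above the stellate-derived level at day 3 and below it at day 7. The day 3 call of Sema3c stayed without PMSC-MF-3d replicate 1 or HSC-MF-7d replicate 1 and was lost without any other single library. Siglecg averaged 9.6 ± 0.953 CPM at day 3, 76.1 ± 15.2 at day 7 and 34.1 ± 2.46 in the stellate-derived cells (-1.83 ± 0.15 and 1.16 ± 0.15). Lrp2, or megalin (-1.27 ± 0.41 and 1.60 ± 0.41), Susd2 (-1.24 ± 0.38 and 2.66 ± 0.34) and Aplp1 (-1.03 ± 0.25 and 1.39 ± 0.25) were below at day 3 and above at day 7 in the same way. The day 3 call of Lrp2 was lost without PMSC-MF-3d replicate 4 or HSC-MF-7d replicate 1. Adjusted p of the further genes, from Pi15 on, were at or below 0.028 at day 3 and 0.029 at day 7.

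Over all genes that changed between the portal days, the stellate-derived level on the log2(CPM + 1) scale fell on no single side. Of the 2744 that rose, the stellate-derived mean was below both portal days for 661, between them for 1004 and above both for 1079, and it was nearer to day 7 for 57.8%. Of the 2566 that fell, it was below both for 1135, between for 935 and above both for 496, and nearer to day 7 for 66.2%. These shares describe where the stellate-derived means lie. The lineage and the day of culture cannot be told apart in them, and they do not date the stellate cultures.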

How the data were processed

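RNA was extracted with RNeasy Micro columns and made into KAPA stranded mRNA libraries, per the labels' protocols. The submitters' processing notes name FastQC, Trimmomatic, STAR 2.5.3a, RSEM 1.2.28 and the mm10 build. The deposited expected counts are RSEM estimates per gene, per the file headers, and were rounded to whole numbers here. The deposited TPM values, also per the file headers, are scaled for gene length. The setting for strand in counting in these libraries is not given, so the 78 named genes whose exons overlap those of another gene in GENCODE vM21 are uncertain where reads are shared.

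Of 24848 genes, 14751 passed filterByExpr. Counts were scaled by TMM and fitted with edgeR 4.0.16 (R 4.3.3), quasi-likelihood with robust estimation, 1 mean for each of 5 groups over 20 libraries. P-values were adjusted by Benjamini-Hochberg over all tested genes, and SE is the log2 fold change divided by the square root of F. A group at 0 counts was set at a floor of 3 counts over its 4 libraries for "at least" folds. Intervals and floors cover counting error only. Tested on simulated counts for the comparison of PMSC-MF-3d with HSC-MF-7d, with 14751 genes, the fit recovered 44.8% of 1.5-fold, 83.6% of 2-fold and 97% of 4-fold changes, and 1.32% of 152 calls were false. Changes were given to 67, 67 and 66 genes, none at the lowest levels, and every other gene was equal between the groups. These shares need not hold for the real comparison, where far more genes were called. Replicate libraries differed by more than counting noise. Positions and promoters are from RefSeq, GRCm38.p6.

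Members and lists were chosen with earlier results of these data known. Genes named are Mki67 and Il11, the 12 largest and 12 smallest log2 fold changes without overlap of libraries and with 20 CPM or more in the higher group, predicted, Mir and Snor genes left out, up to 5 called members of each of 44 lists with at least 10 CPM plus members needed for their roles, up to 6 genes each way with opposite calls at both portal days, and the 6 highest TPM each way. A few genes that the rule picks are not reported here. Alternatives were other scalings, filters, tools (DESeq2 1.42.0, limma 3.58.1 on log2 TPM with 1 or 0.1 added), fewer libraries, a replicate block and portal day 7.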

Additional observations from a re-analysis of the deposited data

Results flagged for a closer look

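In groups of 4 libraries, a library was held to stand apart where its gap to the nearest other took up more of the group's range than Dixon's 95% critical value. This was so in 36 of 506 groups examined, and chance alone flags about 1 in 20. Flags of different genes from the same library need not be independent. In PMSC-MF-3d the share of the range was for Atp5a1 (0.880), B2m (0.849), Cdc20 (0.839), Col4a1 (0.911), Cxcl14 (0.857), Cygb (0.925), Dcn (0.845), Eef1a2 (0.831), Egr3 (0.840), Emilin2 (0.919), Gclm (0.954), Il6st (0.862), Lif (0.896), Osr1 (0.901), Smo (0.995), Twist1 (0.890) and Wnt2 (0.983). In HSC-MF-7d it was for Ccnb1 (0.923), Cenpe (0.861), Cxcl14 (0.838), Dcaf12l1 (0.933), Eln (0.922), Gdf6 (0.899), Hhip (0.873), Il6st (0.852), Itga4 (0.924), Lama4 (0.897), Loxl4 (0.853), Mgp (0.883), Mmp10 (0.940), Pi15 (0.835), Pmepa1 (0.903), Rgs4 (0.883), Serping1 (0.981), Smad3 (0.865) and Tnc (0.944). Replicate 1 was the library apart for Cxcl14, Dcaf12l1, Eln, Gdf6, Hhip, Il6st, Itga4, Mgp, Mmp10, Pmepa1 and Tnc. It was the highest for Eln, Mgp and Pmepa1 and the lowest for the others. Its counts also differed more from those of the other HSC-MF-7d libraries than theirs did from each other. Replicate 2 was apart for Ccnb1, replicate 3 for Pi15 and replicate 4 for Cenpe, Lama4, Loxl4 and Rgs4.

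In 20 named genes the portal cells were on opposite sides of the stellate-derived level at day 3 and day 7, with all 3 contrasts past the threshold. Of these, Pi15, Gpm6b, Lif, Sema3c, Mmd, Wnt2, Cyp26b1, Ccnd1, Lrp2, Susd2, Siglecg and Aplp1 were named for such opposite calls. The count thus follows in part from that choice, and no share over all tested genes is given. The log2 fold change from portal day 3 to day 7 is the difference between the 2 contrasts with the stellate-derived cells. Its sign follows from theirs, and its call was a condition of the choice, so it is no further test. Its values were Aplp1 (2.42), Ccnd1 (2.81), Cd248 (2.86), Cnn1 (2.58), Cyp26b1 (4.42), Efemp1 (2.13), Fn1 (2.23), Fth1 (-1.16), Gpm6b (-2.48), Lif (-2.24), Lrp2 (2.87), Mcam (3.71), Mmd (-2.12), Pi15 (-2.73), Sema3c (-2.02), Siglecg (2.99), Slc2a1 (-1.35), Susd2 (3.89), Tgfb1 (-2.09) and Wnt2 (-2.24). Cyp26b1 and Susd2 had the largest of these changes.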

How the results depend on the processing

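The count of 8061 called genes stayed between 7412 and 9446 under every alternative run on the day 3 comparison, 7412 to 7614 with 1 library left out. It was 8068 with relative log expression scaling, 8433 with DESeq2 (13 genes without an adjusted p) and 7833 with limma on log2(TPM + 1). By library totals alone, 4291 were higher and 3747 lower. Limma on log2(TPM + 0.1) moved the median of all genes to -0.11 and gave 3255 higher and 4665 lower genes. Deviations from the group means were little correlated between same-numbered libraries (0.0456, 0.0130, -0.0111 and 0.0154). Such correlations cannot exclude that a number stands for a shared animal or batch. The replicate block gave 7967 calls, 3960 higher and 4007 lower.

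Of 253 named genes with a fold change, 27 changed their call or sign under some alternative other than day 7. Signs turned in genes that were not called: in limma on log2(TPM + 1) for Ccne2 (-0.10), in limma on log2(TPM + 0.1) for Ccne2 (-0.10), and by library totals alone for Col6a1 (0.0032). With 1 library left out, signs turned within the ranges of Ccne2 (-0.0172 to 0.0765), Col6a1 (-0.16 to 0.0377), Hand2 (-0.20 to 0.0205), Nr2f2 (-0.15 to 0.0183) and Socs3 (-0.0338 to 0.28). With portal day 7 in place of day 3, 39 genes turned, of which Ccne1, Nr2f2, Socs3 and Stat3 were called at neither day: Aplp1 (1.39), Ccl2 (-0.51), Ccnd1 (1.503), Ccne1 (-0.17), Ccne2 (-0.47), Cd248 (2.10), Cdkn2a (0.17), Cdkn2b (0.39), Cnn1 (0.77), Col6a1 (1.84), Csf1r (-0.0617), Cyp26b1 (2.30), Efemp1 (0.73), Fn1 (1.84), Fosl1 (-0.24), Fth1 (-0.31), Gclm (-0.0028), Gpm6b (-1.42), Hmox1 (-1.81), Hoxb4 (0.11), Il6st (0.36), Lif (-1.001), Lrp2 (1.60), Mcam (0.89), Mmd (-0.93), Nr2f2 (0.11), Pdgfra (-0.0642), Pi15 (-1.49), Prdx1 (-0.23), Rrm2 (-0.0259), Sema3c (-1.03), Siglecg (1.16), Slc2a1 (-0.56), Smad3 (0.0477), Socs3 (-0.50), Stat3 (0.19), Susd2 (2.66), Tgfb1 (-1.57) and Wnt2 (-0.91). Pi15, Gpm6b, Lif, Sema3c, Mmd, Wnt2, Cyp26b1, Ccnd1, Lrp2, Susd2, Siglecg and Aplp1 were named for opposite calls at the portal days. Their turning was thus fixed by that choice, and no share over all tested genes is given. The cause of the turns was not tested.

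Of 88 list counts, 20 moved by over 1.5 times under some alternative other than day 7. Fitted on the 8 compared libraries alone, the lower members numbered 15 in place of 9 for YAP pathway genes, 6 in place of 3 for the IL-6 family, 13 in place of 8 for TGF-beta genes, 11 in place of 7 for cholesterol synthesis, 5 in place of 3 for antioxidant genes, 8 in place of 5 for endoplasmic reticulum genes, 2 in place of 1 for HOX genes and 4 in place of 8 for leukocyte genes. In the same fit the higher members numbered 2 in place of 0 for YAP pathway genes, 6 in place of 2 for glycolysis and hypoxia, 10 in place of 6 for endoplasmic reticulum genes, 2 in place of 1 for antigen presentation and 2 in place of 1 for stellate markers, and Acta2 and Tagln were called. The counts of higher glycolysis genes (4), higher YAP and antigen presentation genes and both endoplasmic reticulum counts also moved with the 12 cultured libraries. With limma on log2(TPM + 1), 3 in place of 5 imprinted and fetal growth genes and 1 in place of 2 endothelial genes were higher, and 1 in place of 2 hepatocyte genes lower. With 0.1 added, 1 in place of 2 smooth muscle genes were higher. The remaining moved counts are those of lower portal, elastic fibre and bile duct genes.

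The stellate-derived libraries held fewer counts than the portal ones, the day of the stellate cultures is uncertain, and lineage and day cannot be told apart in these groups.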
